A study of Homo sapiens with 6 samples.

Results

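The SOCS family and the receptor pair that carries interleukin-6 (IL-6) signals were followed on expression arrays of HCC-LM3 cells, a human hepatocellular carcinoma line, after knockdown of ASPP2. The members were the array features whose gene name in the deposited files is SOCS1 to SOCS7, CISH, IL6R or IL6ST. They came to 15 features of 10 genes, out of 45033 features in all. The list was chosen by the log2 fold changes of shASPP2 against shNon on these same arrays, in which SOCS2 stood out. The values of all members in that contrast are therefore a description, and their p-values are no independent test. The shASPP2 group is HCC-LM3 infected with a lentiviral shRNA against ASPP2 (gene TP53BP2), and the shNon group is the same line infected with a control shRNA lentivirus. RNA was taken a week after infection, and each group has 3 samples from separate cultures, each on its own 1-colour NimbleGen array. Every sample is of the same line and carries a lentivirus. The labels name 1 lentivirus per group and no added cytokine, and the medium held serum.

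Cytokines such as IL-6, growth hormone and interferons bind receptors that carry JAK kinases, which phosphorylate STAT transcription factors. STATs then switch on genes of the SOCS family, whose proteins bind the receptors or the kinases through an SH2 domain and recruit a ubiquitin ligase through the SOCS box, closing a negative feedback loop. In hepatocytes SOCS3 restrains IL-6 signalling, SOCS1 restrains interferon signalling, and SOCS2 and CISH restrain growth hormone signalling through STAT5. IL6R encodes the receptor chain that binds IL-6, and IL6ST encodes gp130, the signalling chain that IL-6 shares with its relatives.

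The DNA ahead of the member genes was searched for letters that STATs can bind. RefSeq windows (GRCh38.p14) of the 250 bases before a gene start were at hand for 7 of the 10 members, with SOCS2, SOCS5 and SOCS7 not among them. They were searched on both strands for TTCNNNGAA, the core that most STATs bind, for the wider form that STAT6 prefers, with TTC and GAA 4 bases apart, and for a core of interferon response elements, 2 copies of GAAA with 2 bases between them. Both STAT patterns read the same on either strand, and in the member windows no matches overlapped. Over all 35116 RefSeq windows of this length, 6.57% held the first STAT pattern, 5.38% the wider form and 3.02% the interferon core. The CISH, SOCS3 and SOCS1 windows are shown because the first gene is a classical STAT5 target, the second a STAT3 target and the third an interferon target. Capitals mark the matches, and each window runs 5′ to 3′ on the gene's strand, the minus strand in all 3.
CISH: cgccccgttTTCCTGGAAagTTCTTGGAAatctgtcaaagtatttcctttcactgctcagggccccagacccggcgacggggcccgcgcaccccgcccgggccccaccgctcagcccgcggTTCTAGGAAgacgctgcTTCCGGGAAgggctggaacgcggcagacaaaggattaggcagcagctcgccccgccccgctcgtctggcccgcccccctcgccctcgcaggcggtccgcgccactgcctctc
SOCS3: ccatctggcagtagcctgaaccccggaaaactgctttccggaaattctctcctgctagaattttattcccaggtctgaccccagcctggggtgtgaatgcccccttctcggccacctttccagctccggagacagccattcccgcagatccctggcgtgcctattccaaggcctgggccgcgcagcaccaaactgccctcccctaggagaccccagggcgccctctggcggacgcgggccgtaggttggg
SOCS1: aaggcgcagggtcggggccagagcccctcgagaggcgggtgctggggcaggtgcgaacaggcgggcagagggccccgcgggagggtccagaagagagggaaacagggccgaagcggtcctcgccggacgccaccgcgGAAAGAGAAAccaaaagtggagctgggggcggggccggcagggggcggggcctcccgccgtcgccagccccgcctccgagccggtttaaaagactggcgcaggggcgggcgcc
The CISH window, chr3:50611775-50612024, held 4 matches to TTCNNNGAA, which begin 241, 230, 129 and 112 bases before the start. At least 4 matches were found in 5 of all 35116 windows. The SOCS1 window, chr16:11256205-11256454, held 1 match to the interferon core, beginning 113 bases before the start. The SOCS3 window, chr17:78360926-78361175, held none of the 3 letter patterns, nor did its window at a second start or those of SOCS4, SOCS6, IL6R and IL6ST. A match describes letters only, and a lack of matches covers only the 250 bases of a window. The window starts were not compared with the starts of the transcripts that the array features read. Sites ahead of other starts, of SOCS3 or any other member, were not searched.

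Median feature intensity lay between 111 and 122 on the 6 arrays. A row of 2508 probes of random sequence gave the level of unspecific signal, 30.4 to 30.8 on shASPP2 arrays and 31.8 to 33.3 on shNon arrays. Pairs of shASPP2 arrays had r = 0.983 to 0.985 over the features, pairs of shNon arrays 0.958 to 0.972, and mixed pairs 0.960 to 0.978. The target went with the labels, since TP53BP2 had 228, 216 and 147 in shASPP2 against 332, 488 and 452 in shNon (log2 fold change -1.11, limma adjusted p = 0.203). Its second feature had 132, 91.9 and 126 in shASPP2 against 289, 346 and 285 in shNon (-1.41, limma adjusted p = 0.0991). The groups did not overlap on either feature, though neither passed. Of 13 hepatocyte markers, 7 lay above 2 times the random-probe level on all arrays, among them KRT8, HNF4A, FOXA2 and TF. ALB was dim, with 71.9, 70.2 and 63.1 in shASPP2 against 82.4, 84.1 and 93.1 in shNon on its brightest feature. GPC3 did not reach 2 times the random-probe level on any array, and APOB reached it on 1 array on its brightest feature. Over that level on all arrays were 2 of 14 leukocyte, 2 of 10 fibroblast and stellate and 2 of 10 endothelial markers, and PTPRC, the defining leukocyte gene, had at most 64.1 in shASPP2 and 41.6 in shNon on its brightest feature and lay under that level on all arrays on its other features. The summed intensity of the leukocyte list was 4397 to 4954 in shASPP2 and 3303 to 4345 in shNon. That of the hepatocyte list was 32957 to 37410 in shASPP2 and 26522 to 30771 in shNon, and that of the fibroblast list 768 to 974 in shASPP2 and 628 to 877 in shNon. The endothelial list summed to 2761 to 3276 in shASPP2 and 3012 to 3174 in shNon. The leukocyte and hepatocyte sums were therefore higher in shASPP2 on every array, and their part in the results below was not tested. A sum weighs the brightest genes of a list most, and single markers went both ways. Without overlap, 5 hepatocyte markers were higher and 2 lower, and 1 leukocyte marker was higher and 2 lower. Over all genes these shares were 9.30% higher and 9.52% lower. No marker of either list passed in limma. In bulk RNA, fewer cells that express a gene and less RNA of it per cell cannot be told apart.

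SOCS2 was the member with the largest difference over all 6 arrays. Its only feature, NM_003877 (chromosome 12, 92487728 to 92494109, hg18), had intensities of 921, 1132 and 1109.7 on the shASPP2 arrays against 179.9, 193 and 228 on the shNon arrays. All shASPP2 values thus lay far above all shNon values, and in both groups the arrays were close to each other. The means were 1054 ± 116 in shASPP2 and 200.3 ± 24.7 in shNon (SD, n = 3 each), a log2 fold change of 2.40 (SE 0.188, 95% interval 1.96 to 2.84). Among all 45033 features it ranked the third by size of rise and the tenth by p. In the limma fit over all features its adjusted p was 0.0114, and it was the only 1 of the 15 member features under 0.05, where 0.138% of all features were, 0.0533% in the direction of a rise. Leaving out single arrays kept the log2 fold change between 2.32 and 2.49. The adjusted p then was 0.109, 0.104 and 0.107 without shASPP2 array 1, 2 or 3 and 0.0726 without shNon array 2, in fits with fewer arrays, and it stayed under 0.05 without shNon array 1 or 3. SOCS2 has no second feature on the array, so its value rests on 3 probes.

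**Figure D1:**
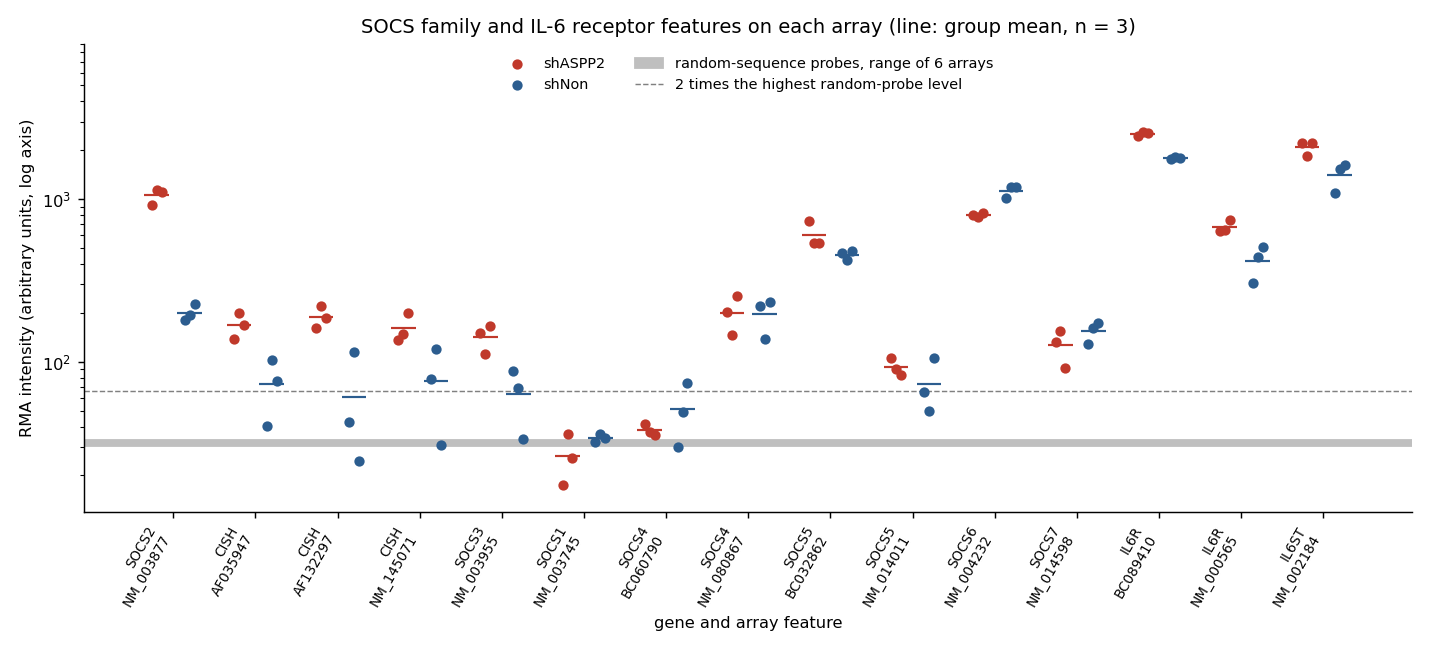
RMA intensity (log axis) of each of the 15 member features on each of the 6 arrays, shASPP2 in red and shNon in blue, with a line at each group mean, the range of the random-sequence probes as a grey band and 2 times its top as a dashed line. SOCS2 has 921 to 1132 in shASPP2 and 180 to 228 in shNon, while SOCS1 lies around the random-probe level in both groups.

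CISH, the founding member of the family and an inhibitor that docks on STAT5-binding receptors, was read by 3 features over nearly the same span of chromosome 3 (50618923 to 50624207, hg18). Feature AF035947 had 138, 200.1 and 167 in shASPP2 against 40.4, 102 and 76.7 in shNon (log2 fold change 1.29, SE 0.350). Feature AF132297 had 162, 219 and 186 in shASPP2 against 42.9, 114 and 24.5 in shNon (1.93, SE 0.512). Feature NM_145071 had 137, 148 and 198 in shASPP2 against 78.9, 120.2 and 30.7 in shNon (1.26, SE 0.472). All 3 features were higher on every shASPP2 array than on any shNon array, and the shNon arrays were the scattered ones. Among them array 2 was highest on all 3 features, and array 3 came down to the random-probe level on 2 of them. The log2 SD was 0.22 to 0.28 in shASPP2 and 0.69 to 1.13 in shNon for the 3 features. Without shNon array 3 the log2 fold change was 0.71 on NM_145071 and 1.42 on AF132297, and without shNon array 1 it was 0.91 on AF035947. Without shNon array 2 it was 1.58 on AF035947, 1.69 on NM_145071 and 2.53 on AF132297, the last above the 2.37 of SOCS2 in the same fit. The limma adjusted p-values were 0.266, 0.257 and 0.386 in the order of the features above, so none passed. The size of the CISH difference is uncertain, since the shNon arrays scattered and shNon array 3 sat on the floor on 2 features. With values floored at the random-probe level the log2 fold change was 1.29 on AF035947, 1.78 on AF132297 and 1.22 on NM_145071. The sources used here do not give whether the 3 features share probes.

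SOCS3, the inhibitor that binds gp130 and JAK kinases after IL-6 stimulation, was read by NM_003955 (chromosome 17, 73864453 to 73867753, hg18). It had 149.9, 112 and 166 in shASPP2 against 88.3, 68.6 and 33.4 in shNon. The groups did not overlap, and shNon array 3 was again at the random-probe level. The log2 fold change was 1.26 (SE 0.368, 95% interval 0.40 to 2.13, limma adjusted p = 0.290), and 0.86 without shNon array 3. SOCS1, the inhibitor of JAK kinases in interferon signalling, was not above the unspecific signal. NM_003745 (chromosome 16, 11255774 to 11257540, hg18) had 17.4, 36.2 and 25.6 in shASPP2 against 31.9, 35.7 and 33.8 in shNon, under 2 times the random-probe level on all 6 arrays, so no fold is given.

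SOCS4 to SOCS7 are the branch of the family with long N-terminal regions, tied to growth factor receptors and insulin signalling more than to JAK kinases. SOCS6 was the only member that was lower in shASPP2 on every array. Its feature NM_004232 (chromosome 18, 66107242 to 66145329, hg18) had 799.7, 772 and 818 in shASPP2 against 1015, 1180.5 and 1192 in shNon (log2 fold change -0.50, SE 0.168, limma adjusted p = 0.345). SOCS5, which acts on the EGF receptor, had 734, 535 and 537 in shASPP2 against 464, 423 and 480.5 in shNon on BC032862 (0.39, SE 0.197). Here the groups did not overlap, but shASPP2 array 1 stood above the other two, and without it the log2 fold change was 0.24. The second SOCS5 feature, NM_014011, had 106, 90.1 and 82.8 in shASPP2 against 65.4, 49.9 and 105.3 in shNon, a nearly equal log2 fold change of 0.40 (SE 0.290) with overlapping groups. SOCS4 did not separate the groups. Its brighter feature NM_080867 had 202, 146 and 253 in shASPP2 against 219.7, 138 and 233 in shNon (0.02, 95% interval -0.65 to 0.70), and the dim BC060790 had 41.2, 37.2 and 35.6 in shASPP2 against 29.9, 49.3 and 73.8 in shNon, with 1 array of the 6 over 2 times the random-probe level. SOCS7, which binds insulin receptor substrates, had 132, 155 and 91.6 in shASPP2 against 129, 162 and 174 in shNon on NM_014598 (-0.32, 95% interval -0.90 to 0.26), with overlapping groups. The limma adjusted p of these 6 features lay between 0.345 and 0.982.

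Both receptor genes were moderately higher in shASPP2. IL6R (chromosome 1, 152644292 to 152706812, hg18) had 2429, 2578 and 2565 in shASPP2 against 1763, 1821 and 1784 in shNon on BC089410. Both groups were tight, with a log2 SD of 0.047 in shASPP2 and 0.024 in shNon, and the log2 fold change was 0.50 (SE 0.159, limma adjusted p = 0.327). The second IL6R feature, NM_000565, had 641, 645 and 749 in shASPP2 against 307, 441 and 505 in shNon (0.73, SE 0.229, limma adjusted p = 0.320). IL6ST (chromosome 5, 55272450 to 55326520, hg18) had 2223, 1843 and 2229 in shASPP2 against 1099, 1525 and 1628 in shNon on NM_002184 (0.58, SE 0.214, limma adjusted p = 0.380). On all 3 receptor features every shASPP2 array lay above every shNon array, and with single arrays left out the log2 fold changes were between 0.41 and 0.88. A further feature, AB102799, lies within IL6ST and is described in the files as an IL6ST variant, but has no gene name there and is no member. It had 382, 386 and 343 in shASPP2 against 247, 195 and 372 in shNon, with the groups overlapping (0.50, SE 0.258).

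**Figure D2:**
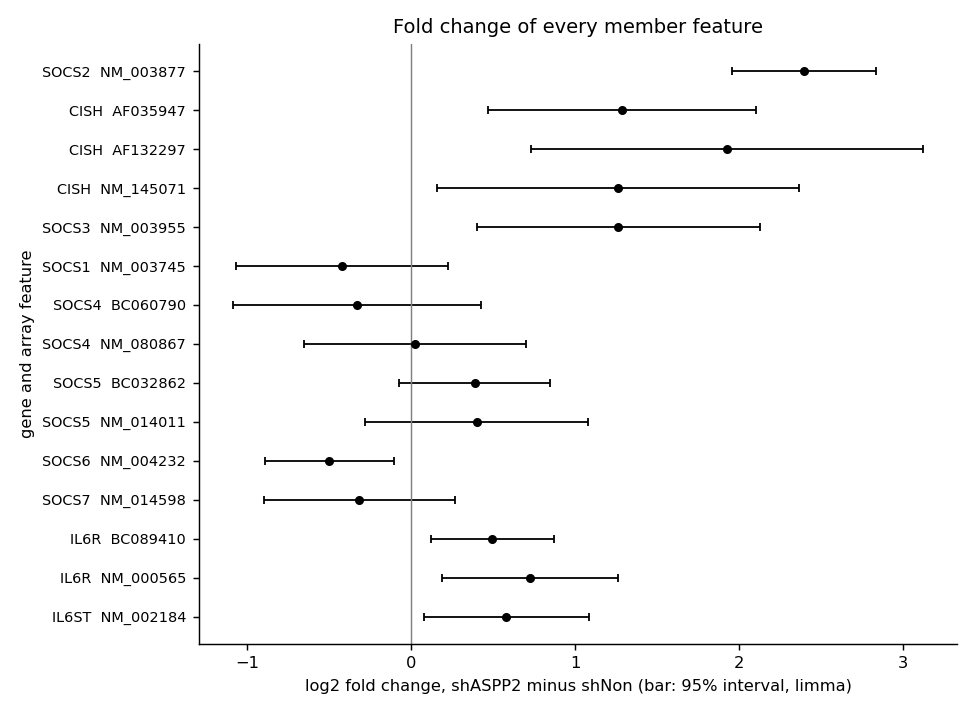
Log2 fold change (shASPP2 minus shNon, points) of each member feature with its 95% interval from limma (bars). SOCS2 lies at 2.40, the 3 CISH features and SOCS3 between 1.26 and 1.93 with wide intervals, and SOCS6 at -0.50. SOCS1 and BC060790 of SOCS4 are drawn as fitted, though their signal was near that of the random-sequence probes.

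Of the 15 member features, 9 were higher on every shASPP2 array than on any shNon array, 1 was lower on every one, and 5 overlapped, where 9.46% of all features were higher and 9.17% lower without overlap. The contrast chose the list, so nothing is read from that difference. The median log2 fold change was 0.50 over the member features and 0.01 over all features. Only 8 of the 15 features were above 2 times the random-probe level on all 6 arrays, and the features that did not reach it, those of SOCS1, CISH, SOCS3, the dimmer SOCS4 and the dimmer SOCS5, have fold changes that the floor of the array can limit. The log2 SD was larger in shNon for 11 of the 15 features, as it was for 64.8% of all features.

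**Figure D3:**
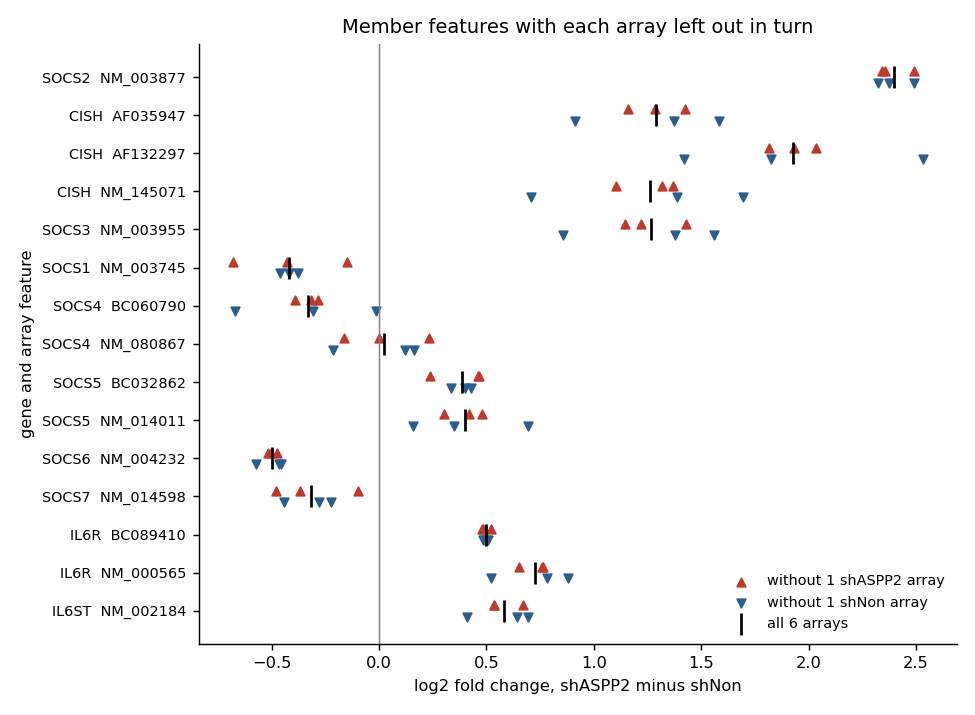
Log2 fold change of each member feature with all 6 arrays (black bar) and with each shASPP2 array (red, pointing up) or shNon array (blue, pointing down) left out in turn. SOCS2 stays between 2.32 and 2.49, while NM_145071 of CISH ranges from 0.71 to 1.69 with the shNon array that is left out, and NM_080867 of SOCS4 lies on both sides of 0.

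The genes whose pattern over the 6 arrays was nearest to that of SOCS2 were sought among 19441 named genes outside the members, by the root mean square difference between log2 profiles after subtracting each gene's mean. They were WNT7B, a secreted Wnt ligand, at 0.211 log2, GLIPR1 at 0.231, the haem oxygenase HMOX1 at 0.270, the basement membrane collagen COL4A2 at 0.336 and ASB4 at 0.343. WNT7B had 262, 278 and 294 in shASPP2 against 53.9, 75.9 and 68.0 in shNon (limma adjusted p = 0.0280). GLIPR1 averaged 3447 ± 445 in shASPP2 and 735 ± 26.4 in shNon, and HMOX1 5504 ± 552 in shASPP2 and 1383 ± 125 in shNon (SD, n = 3 each, limma adjusted p = 0.0168 and 0.0230). Their levels differed widely, while the closeness of their patterns is the rule by which they were picked. The adjusted p-values of genes picked for likeness to SOCS2 are therefore no independent test. COL4A2 stayed under 2 times the random-probe level on all shNon arrays, so its rise is given as at least 2.19-fold in shASPP2 (means 144 in shASPP2 and 38.3 in shNon, limma adjusted p = 0.0310). Such a bound sets the mean of the brighter group against that level, or against the dim value where it is higher. It allows for the floor only and not for scatter between arrays. The measure is a description over 6 arrays that fall into 2 groups, and it favours genes with a rise of similar size. ASB4 encodes a protein with ankyrin repeats and a SOCS box, the same ligase-recruiting module that ends SOCS2. It had 329, 294 and 249 in shASPP2 against 54.7, 70.5 and 106 in shNon on the feature used (log2 fold change 1.96, SE 0.273, adjusted p = 0.0960 in limma, over all genes). Its second feature had 89.2, 158 and 156 in shASPP2 against 44.8, 52.6 and 131 in shNon, a smaller log2 fold change of 0.94 with overlapping groups.

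**Figure D4:**
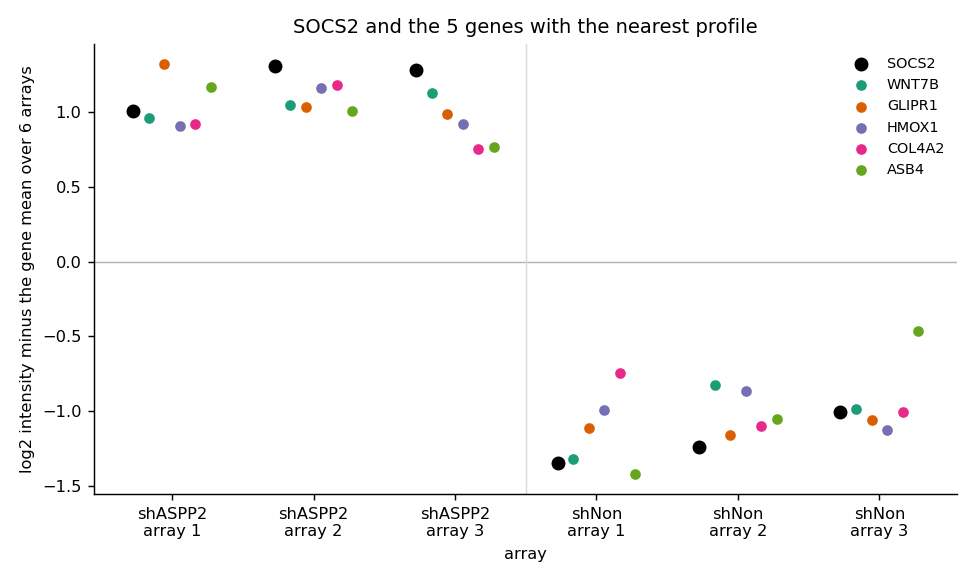
Log2 intensity minus each gene's mean over the 6 arrays (vertical axis) for SOCS2 and the 5 genes with the nearest profile, with the shASPP2 arrays on the left and the shNon arrays on the right. All 6 genes are above 0 on the shASPP2 arrays and below 0 on the shNon arrays, with root mean square differences from SOCS2 of 0.211 to 0.343.

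The pathway around the family was then read from 10 lists of 174 other genes in all, with 1 feature a gene and limma adjustment over all 23593 genes. No gene of these lists rose and 4 fell past the threshold, IGFBP3 and the fibrinogen genes FGA, FGB and FGG, while 170 did not pass. The lists were chosen with earlier results of these data known, so these counts are a description and no independent test. The feature used was the brightest of each gene, and other features of a gene can differ from it. Over all genes 0.102% passed, 0.0424% higher and 0.0593% lower. Unadjusted p-values under 0.05 were had by 11 list genes with higher and 15 with lower levels, and over all genes by 1306 with higher and 1399 with lower levels. Groups did not overlap for 20 list genes in the direction of higher and 21 of lower levels, against 9.30% and 9.52% of all genes. The median log2 fold change was 0.03 over the 174 genes and 0.01 over all genes. Without shNon array 1 or 3 only FGG of the 4 passed, and without any other array none did.

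Among 15 ligands of the IL-6 family and related cytokines none passed in limma, and unadjusted p-values under 0.05 were found for 1 that was higher and 1 that was lower. IL6 itself had 161, 154 and 125 in shASPP2 against 70.8, 59.5 and 111 in shNon (log2 fold change 0.91, SE 0.267, adjusted p = 0.296 in limma). Its shNon values lay under the median feature intensity of their arrays. LIF, another gp130 ligand, had 958 ± 148 in shASPP2 and 692 ± 132 in shNon (SD, n = 3, limma adjusted p = 0.479). A dimmer LIF feature had 260, 214 and 241 in shASPP2 against 97.2, 190 and 132 in shNon. Its groups did not overlap (0.82, SE 0.266, adjusted p = 0.333 in limma, over all features). CNTF had a log2 fold change of -0.37 (limma adjusted p = 0.479). The 1 lower ligand with an unadjusted p under 0.05 was LEP, the leptin gene (means 30.5 in shASPP2 and 49.9 in shNon, limma adjusted p = 0.431). LEP was under 2 times the random-probe level on all arrays but 1 of shNon. Of 22 further cytokine receptors none passed in limma, and unadjusted p-values under 0.05 were found for 3 that were higher and 2 that were lower. The largest difference was that of IL7R, the interleukin-7 receptor chain, with 85.0, 194 and 115 in shASPP2 against 20.2, 47.1 and 31.7 in shNon. It was under 2 times the random-probe level on all shNon arrays. The bound against that level was 1.90-fold, without allowance for scatter (limma adjusted p = 0.179). PRLR, the prolactin receptor, which signals through STAT5, had 145, 107 and 125 in shASPP2 against 44.9, 42.4 and 86.4 in shNon (1.18, SE 0.306, limma adjusted p = 0.252). Its other features did not show this difference, with 55.6, 90.3 and 90.6 in shASPP2 against 38.4, 45.8 and 153 in shNon on NM_000949, and AF416618 under 2 times the random-probe level on all arrays. IL13RA1 had a log2 fold change of 0.40 and LEPR, the leptin receptor, had 29.4, 23.0 and 25.9 in shASPP2 against 36.0, 39.8 and 33.6 in shNon, around the random-probe level. GHR, the growth hormone receptor, outside the naming rule and chosen after its values were seen, lay between 25.5 and 36.6 in shASPP2 and between 21.8 and 41.6 in shNon, around the random-probe level.

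Of 11 JAK and STAT genes none passed in limma and 1 had an unadjusted p under 0.05. That was STAT2, a factor of interferon signalling, at -0.55 (SE 0.202, limma adjusted p = 0.382). STAT5A had 509, 555 and 663 in shASPP2 against 697, 828 and 794 in shNon (-0.43, SE 0.183, limma adjusted p = 0.437), STAT5B a log2 fold change of 0.38 and JAK1 of 0.20. A second, dimmer feature of STAT5A and one of STAT5B had -0.03 each. Of 14 other inhibitors, the phosphatases, PIAS proteins and adaptors, none passed in limma or at an unadjusted p under 0.05, with CBL at 0.42, SH2B2 at 0.46, SH2B1 at 0.41 and CBLB at 0.34 having the smallest p. The features of SH2B1 disagreed, since the others had 0.07, -0.01 and, with groups that did not overlap, -0.37. Of 10 partners of the SOCS box in the ubiquitin ligase none passed in limma or at an unadjusted p under 0.05, and their log2 fold changes ranged from -0.32 for RNF7, the RING subunit that works with CUL5, to 0.21 for ELOC, the elongin C adaptor. NEDD8 had -0.23 on the feature used and 0.11 on another, and UBE2M 0.15. Of 28 other SOCS box proteins none passed in limma, and 2 with higher and 2 with lower levels had an unadjusted p under 0.05. Beside ASB4 these were NEURL2 at 0.57, RAB40B at -0.70 (SE 0.174, limma adjusted p = 0.238) and WSB1 at -0.60 (SE 0.189, limma adjusted p = 0.324). A second WSB1 feature had -0.65, while the groups overlapped on the second feature of RAB40B (-0.36) and on all features of NEURL2.

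Among the target genes of the STATs, 4 fell and none rose past the threshold. Of 14 growth hormone and STAT5 targets 1 fell and 13 did not pass, with a list median of 0.24 log2. The one that fell was IGFBP3, the main carrier of insulin-like growth factors, with 1369, 1672 and 1372 in shASPP2 against 4298, 4404 and 4141 in shNon (log2 fold change -1.55, SE 0.170, limma adjusted p = 0.0379). IGF1, the classical growth hormone target, had 248, 209 and 248 in shASPP2 against 169, 245 and 56.2 in shNon, so the groups overlapped (0.82, SE 0.506). Its other features, M11568, M37484 and NM_000618, lay under 2 times the random-probe level on all arrays but 1 of shNon. IGFALS was dim (means 69.8 in shASPP2 and 49.5 in shNon), and PIM1 had a log2 fold change of 0.37. Of 26 IL-6 and STAT3 targets of the acute phase 3 fell and 23 did not pass, with a median of -0.01 log2, and 4 with higher and 5 with lower levels had an unadjusted p under 0.05. FGG had 322, 305 and 282 in shASPP2 against 1486, 1650.2 and 2094 in shNon (-2.51, SE 0.193, limma adjusted p = 0.0168). FGA and FGB both fell by 1.73 on the log2 scale (limma adjusted p = 0.0296 and 0.0361). These genes were already known to fall in these data when the list was made. JUNB, an early STAT3 target, had 624, 792 and 682 in shASPP2 against 273, 332 and 357 in shNon (1.13, SE 0.191, limma adjusted p = 0.126). Of 22 interferon targets none passed in limma, and 3 were lower at an unadjusted p under 0.05, IFIT1, PSMB9 and CXCL9. IFIT1 had 36.3, 37.1 and 30.2 in shASPP2 against 87.5, 47.1 and 157 in shNon, where array 2 was also under 2 times the random-probe level. The bound against that level was 1.41-fold lower in shASPP2, without allowance for scatter (limma adjusted p = 0.322). PSMB9, a subunit of the immunoproteasome, had a log2 fold change of -0.73 (SE 0.235). CXCL9 stayed under 2 times the random-probe level on every array, and MX2 did so on all but 1 of shASPP2. Of 14 receptors and adaptors of insulin, IGF and growth factor signalling none passed in limma and 1 was higher at an unadjusted p under 0.05. This was IGF1R, which SOCS2 binds, with 527, 615 and 547 in shASPP2 against 348, 477 and 401 in shNon (0.47, SE 0.189, limma adjusted p = 0.413). PIK3R1 had a log2 fold change of 0.38 and GAB1 of -0.24, while FLT3 passed 2 times the random-probe level on 1 shNon array only.

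**Figure D5:**
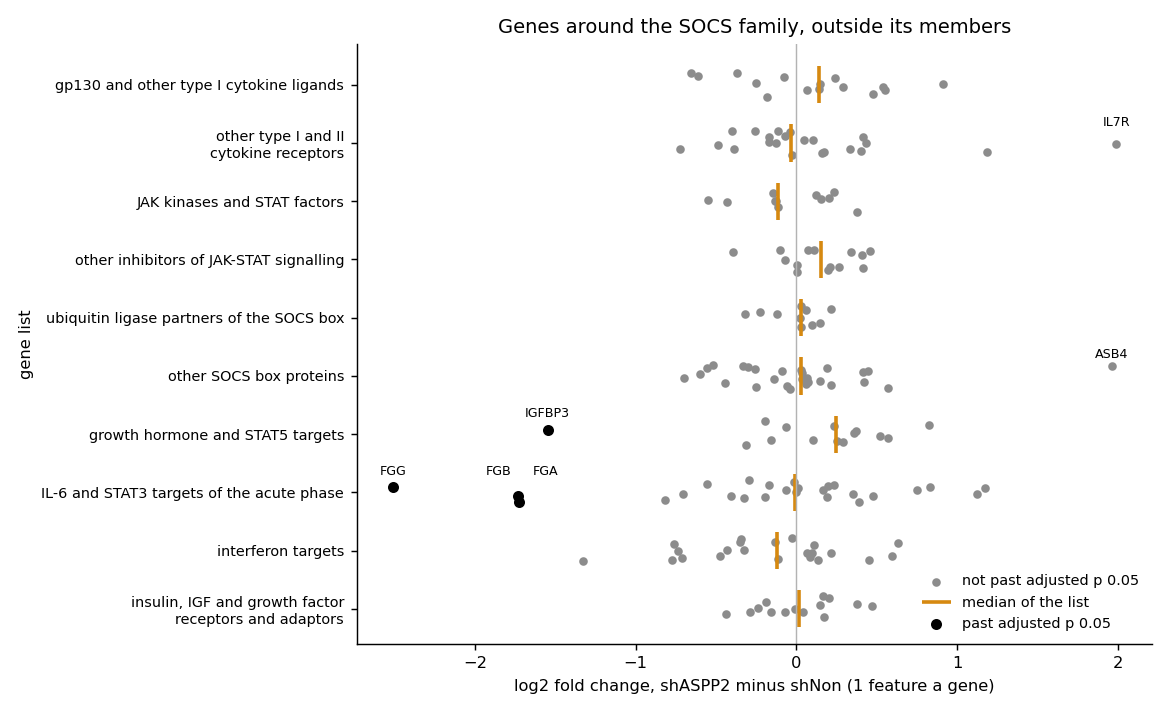
Log2 fold change (shASPP2 minus shNon) of each gene of the 10 lists around the family, 1 point a gene, with the list median as a bar and black points for genes past an adjusted p of 0.05 in limma. The 4 black points are IGFBP3, FGA, FGB and FGG, all below 0, and ASB4 (1.96) and IL7R (1.99) lie far to the right in grey.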

How the data were processed

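For each sample the authors deposited a linear intensity of every feature. The submitters' processing notes name RMA, without settings, and the file headers place features on hg18. Of 45033 features, 45031 were summarised from 3 probes. The deposited value table differed from the sample files in 0 cells. RMA equalises array distributions and pulls dim features towards a floor, so their fold changes can come out too small. Values that scatter under the random-probe level can also make a fold change larger. With values floored at that level, the log2 fold change of CISH feature AF132297 went from 1.93 to 1.78.

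Log2 intensities were fitted with limma 3.58.1 (lmFit, eBayes) in R 4.3.3, with a single term for group, two-sided, and Benjamini-Hochberg adjustment at 0.05 over all features for the members and over 23593 genes for the lists. A gene was represented by its feature with the highest mean log2 intensity, and symbols were updated through RefSeq gene identifiers (38916 features) and accessions (78 features). The fit was tested on simulated data with the same spread in both groups. On the arrays the median log2 SD was 0.226 in shASPP2 and 0.309 in shNon, so that test is no check of unequal spread. The members, lists and tests were chosen with earlier results of these data known. Named list genes are those past the threshold and the 4 with the smallest p. Replicate numbers were not treated as pairs, since the deviations of same-numbered arrays from their group means correlated at 0.056, -0.076 and -0.126. The number of arrays, 3 a group, limits precision. An exact permutation test cannot go below p = 0.1. Alternatives were other scalings, filters, variance models, a block and single arrays left out.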

Additional observations from a re-analysis of the deposited data

How the results depend on the processing

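SOCS2 kept its direction under all 15 alternatives run for it, with log2 fold changes between 2.32 and 2.49. The deposited value table, both filters, trend and robust variance, the replicate block and a floor at the random-probe level left it at 2.40. These settings could not change its group means, so they are no check of its direction. SOCS2 was the only member feature past the limma threshold in the main setting and under median centring, cyclic loess, both filters and array weights. It was 1 of 2 with trend and robust variance, where CISH feature AF132297 also passed (limma adjusted p = 0.0292). With the replicate block, which leaves fewer degrees of freedom, the counts of member features, all features, all genes and list genes past the threshold were 0, 0, 0 and 0 (8, 4212, 2208 and 25 at an unadjusted p under 0.05), and SOCS2 had an adjusted p of 0.174. The numbers do not pair the samples by their correlation. With single arrays left out the same counts were 0 to 1, 0 to 17, 0 to 6 and 0 to 1, against 1, 62, 24 and 4 with all arrays. Each of these fits has fewer arrays. With trend and robust variance they were 2, 952, 506 and 11, and the list genes then were ASB4, C4BPA, CEBPB, CP, FGA, FGB, FGG, IGFBP3, IL7R, JUNB and WSB1. ASB4 and JUNB, both higher in shASPP2, also passed under either filter (6 list genes), and ASB4 with array weights (5). The filter at 2 times the random-probe level gave 207 features and 124 genes, and the filter at the median level 405 features and 247 genes. Both test fewer features. SOCS1 and BC060790 of SOCS4 were left out by either filter, and SOCS3, NM_014011 of SOCS5 and the CISH features by the second. SOCS4 feature NM_080867, which did not separate the groups, changed sign under median centring (-0.0093), cyclic loess (-0.029), without shNon array 2 (-0.21) and without shASPP2 array 3 (-0.16). Its highest value was 0.23, without shASPP2 array 2. The cause was not tested. No other member feature changed sign under the alternatives run. Dim signal limits SOCS1, CISH, SOCS3 and BC060790.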
